A study of Mus musculus with 6 samples.

Results

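The enzymes that modify drugs, dietary chemicals and steroids were followed in the small intestine of suckling mice, in libraries labelled Erk1/2-KO and in wild type libraries. Members were all symbols that begin with the gene stems of 5 enzyme superfamilies: the cytochromes P450 of families Cyp1 to Cyp4, the carboxylesterases Ces1 to Ces3, the UDP-glucuronosyltransferases Ugt1 to Ugt3, the glutathione S-transferases of the alpha, kappa, mu, omega, pi and theta classes, and the sulfotransferases Sult1 to Sult5. The rule used symbols only, and it found 160 of the 24452 symbols in the files. Polyadenylated RNA of the small intestine was sequenced at postnatal day 14 in C57BL/6 mice, in 3 libraries with the genotype label Erk1/2 -/- and 3 with the label wild type. The labels name no treatment, and they do not give the alleles, the cell types in which the genes were deleted, the stretch of intestine taken, the sex or the number of animals behind a library. They say triplicate without saying whether each library is a separate animal. Sex-linked transcripts, given below, show that each genotype's libraries came from more than 1 animal, and p-values rest on the spread among these 6 libraries. The libraries are called labelled KO 1 to 3 and WT 1 to 3.

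Foreign chemicals are cleared in steps. Cytochromes P450 oxidise them with electrons passed on by the reductase Por, and carboxylesterases split esters and amides. Glucuronosyltransferases, glutathione S-transferases and sulfotransferases then attach a polar group, and export pumps move the conjugates out of the cell. Enterocytes carry out much of this work on swallowed compounds before these reach the liver, and the genes are controlled by ligand-activated or stress-activated factors such as AhR, PXR, CAR, PPARalpha and Nrf2. Many of the same enzymes also act on fatty acids, eicosanoids, bile acids, steroids and vitamins made by the body.

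Values are the authors' normalised counts per gene, and different genes are ranked against each other only by normalised count per kb of exon, while sums over genes are of plain normalised counts unless stated. Library totals ran between 14825845 and 17153570 in the labelled KO libraries and between 13641468 and 14094100 in WT libraries. Mapk3, which encodes ERK1, was at 3363, 2280 and 2734 in labelled KO 1 to 3 and at 3142, 2788 and 2004 in WT 1 to 3. These ranges overlap, and the log2 fold change was 0.09 ± 0.22 (SE, limma, adjusted p = 0.819). The transcript level of Mapk3 thus does not bear out the label. It cannot test the label, since the alleles and the cell types of deletion are not given. The labelled genotype is therefore used here only as a label. The non-coding RNA Xist was at 2, 5924 and 4596 in labelled KO 1 to 3 and at 19, 19 and 6551 in WT 1 to 3. Y-linked Ddx3y was at 177, 0 and 0 in labelled KO 1 to 3 and at 303, 428 and 0 in WT 1 to 3. Labelled KO 2, labelled KO 3 and WT 3 thus had the female pattern and the other 3 libraries the male pattern. A segment score, the mean log2 level of 6 genes of the proximal intestine minus that of 4 ileal genes, was -0.66, 4.87 and 4.90 in labelled KO 1 to 3 and 3.82, 3.21 and -0.47 in WT 1 to 3. Labelled KO 1 and WT 3 were therefore lowest within their genotypes. Of the 4 ileal genes, Fgf15 was at 390, 0 and 0 in labelled KO 1 to 3 and at 5, 13 and 1975 in WT 1 to 3. Ileal Fabp6 and Slc10a2 reached 10 in fewer than 3 libraries and so did not enter the score. Fabp6 was at 1947, 3 and 3 in labelled KO 1 to 3 and at 1, 1 and 4 in WT 1 to 3. Tm4sf5, one of the 6 proximal genes, was itself called higher (log2 fold change 1.93, limma, adjusted p = 0.00527), so the score is not free of genotype. Of 10 enterocyte structure genes, 1 was called, Krt20, beside 8.79% of all genes tested. The summed level of the 10 was 152810 to 190578 in the labelled KO libraries and 103706 to 119402 in WT libraries, with no overlap. Of 6 endothelial genes, Pecam1, Cdh5 and Kdr were lower, beside 3.94% of all genes tested. The summed level of the 6 was 2955 to 3257 in labelled KO libraries and 4641 to 5556 in WT libraries. Pancreatic acinar genes, with 0 of 8 called by limma and 0 at an unadjusted p under 0.05, summed to 276 to 7835 in labelled KO libraries and to 50528, 2961 and 2481 in WT 1 to 3. The part of any of these in the members' values was not tested. In bulk tissue, fewer cells of a type and less RNA per cell cannot be told apart.

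Of the 160 members, 39 were at 0 in all 6 libraries, 44 others did not reach a level of 10 in 3 libraries, and 77 were tested. Among the 77, 9 were higher and 5 were lower in the labelled KO libraries at an adjusted p under 0.05 (limma, Benjamini-Hochberg over 14686 genes). That is 18.2% of the tested members, beside 8.79% of all genes tested, of which 4.85% were higher and 3.94% lower. The 9 higher members were Cyp4f14, Cyp1b1, Sult2b1, Cyp4f40, Cyp3a13, Gstk1, Cyp2j6, Gsto1 and Gstt2, and the 5 lower members were Cyp3a41a, Cyp2w1, Sult1a1, Cyp4f18 and Sult1d1. Of these, Cyp3a41a reached 10 only in the WT libraries, so the filter fixed its direction, and it is still in these counts. Uncalled Cyp2c70 passed the filter in the same way, and both are in the counts of non-overlap and of unadjusted p below. The median log2 fold change of the tested members was 0.00, against -0.01 over all genes, with 39 members above 0 and 38 below. The median size of the log2 fold change, sign set aside, was 0.69 for members and 0.36 for all genes. The labelled KO and WT values did not overlap for 28 members, or 36.4%, beside 37.6% of all genes (19.8% with the labelled KO above and 17.8% with it below). Calls were sensitive to single libraries: 22 members were called without labelled KO 1, 8 without labelled KO 2, 0 without labelled KO 3, 1 without WT 1, 2 without WT 2 and 7 without WT 3. The share of all genes called in those fits was 20.5%, 4.45%, 0.436%, 0.531%, 0.327% and 2.78%, so the count over all genes moved as well. At an unadjusted p under 0.05, 28 members (36.4%) passed with all libraries, beside 30.3% of all genes, and 25 (32.5%) passed without labelled KO 3, beside 23.3%. With Ddx3y above 0 as a covariate, 7 members were higher and 2 lower, beside 1.91% of all genes called higher and 1.21% lower (3.13% in all). With the authors' scaling replaced by library totals, the median of all genes moved to -0.19, and 7 members were called higher and 7 lower.

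**Figure D1:**
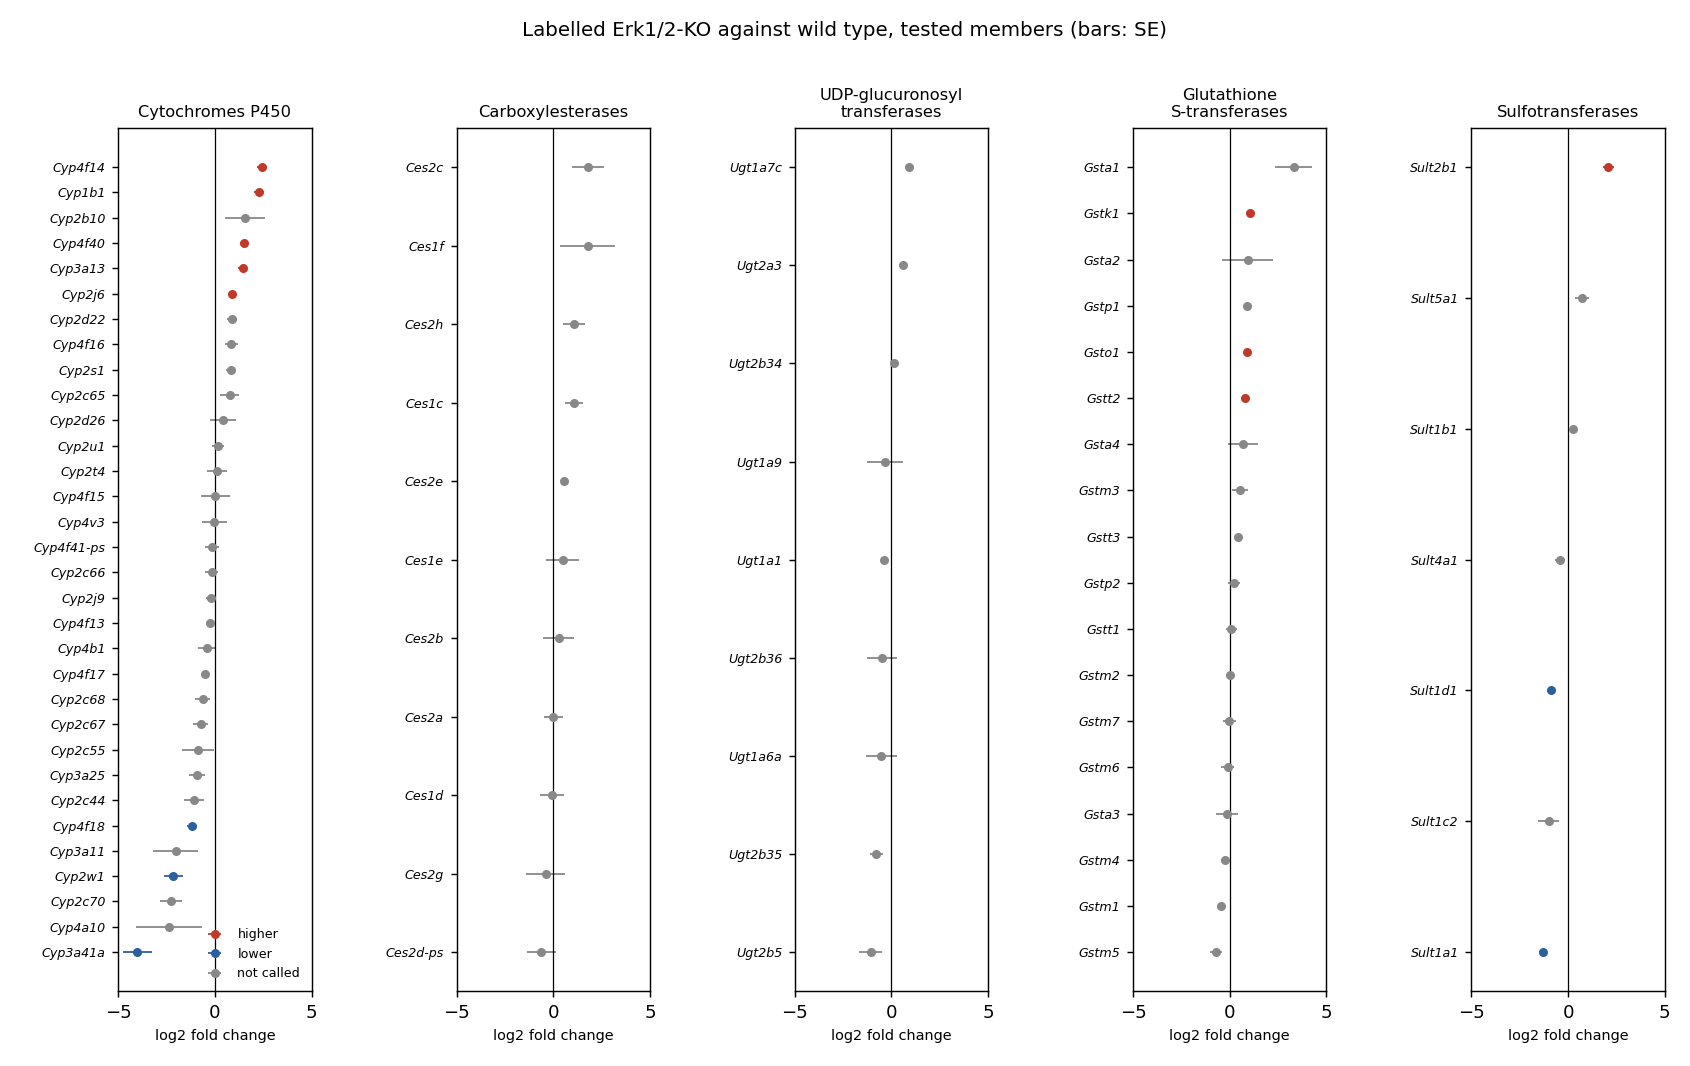
Log2 fold change of each tested member (labelled Erk1/2-KO over wild type, bars are SE), grouped by enzyme superfamily, with higher members in red, lower ones in blue and uncalled ones in grey. Members spread to both sides of 0, from -4.03 for Cyp3a41a to 3.30 for Gsta1, which was not called. Cyp3a41a passed the filter on low values only through the WT libraries.

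Of 4 Cyp3a genes, Cyp3a13 was called higher, Cyp3a11 was not called, Cyp3a16 was not tested, and the filter fixed the direction of Cyp3a41a. Promoter sequences are shown for these 4 genes and for Cyp1b1, which is a textbook target of AhR. Each runs 5′ to 3′ from 250 bases before to 50 bases after the annotated start, from RefSeq on GRCm38.p6, and all 5 lie on the minus strand. The coordinates are chr5:137921570-137921869 for Cyp3a13, chr5:145879805-145880104 for Cyp3a11, chr5:145469674-145469973 for Cyp3a16, chr5:145720087-145720386 for Cyp3a41a and chr17:79715012-79715311 for Cyp1b1. Capitals mark matches on either strand to 4 motifs that share no match here: AP-1 (TGANTCA), the AhR core (GCGTG), the nuclear receptor hexamer (AGGTCA) and the TATA box (TATAAA).
Cyp3a13: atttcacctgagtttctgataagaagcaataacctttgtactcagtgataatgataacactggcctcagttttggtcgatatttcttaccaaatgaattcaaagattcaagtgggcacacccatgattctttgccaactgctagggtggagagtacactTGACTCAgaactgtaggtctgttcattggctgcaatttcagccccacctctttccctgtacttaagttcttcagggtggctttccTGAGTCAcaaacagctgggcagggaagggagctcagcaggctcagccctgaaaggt
Cyp3a11: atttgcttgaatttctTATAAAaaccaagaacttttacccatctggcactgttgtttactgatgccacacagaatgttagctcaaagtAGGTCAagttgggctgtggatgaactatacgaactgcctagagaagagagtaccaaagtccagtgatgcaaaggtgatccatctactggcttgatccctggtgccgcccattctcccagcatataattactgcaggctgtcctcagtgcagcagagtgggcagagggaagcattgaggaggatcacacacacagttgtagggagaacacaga
Cyp3a16: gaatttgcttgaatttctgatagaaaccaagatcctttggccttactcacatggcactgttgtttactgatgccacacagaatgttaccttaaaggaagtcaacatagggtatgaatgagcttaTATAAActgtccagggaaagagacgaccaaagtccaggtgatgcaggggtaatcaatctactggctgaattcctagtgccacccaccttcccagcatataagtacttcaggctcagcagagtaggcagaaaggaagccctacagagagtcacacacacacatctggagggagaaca
Cyp3a41a: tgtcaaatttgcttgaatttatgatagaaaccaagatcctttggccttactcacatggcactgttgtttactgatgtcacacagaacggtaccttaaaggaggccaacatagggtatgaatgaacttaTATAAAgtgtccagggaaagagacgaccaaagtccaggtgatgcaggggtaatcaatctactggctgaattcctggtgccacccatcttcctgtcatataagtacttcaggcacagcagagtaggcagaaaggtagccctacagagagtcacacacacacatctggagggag
Cyp1b1: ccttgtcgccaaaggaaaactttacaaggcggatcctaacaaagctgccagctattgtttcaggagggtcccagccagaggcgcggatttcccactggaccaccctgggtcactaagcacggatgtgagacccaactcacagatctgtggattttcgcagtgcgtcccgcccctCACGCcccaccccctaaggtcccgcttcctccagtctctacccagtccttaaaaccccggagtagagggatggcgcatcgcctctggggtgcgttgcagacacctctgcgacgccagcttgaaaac
The Cyp3a13 window held 2 AP-1 matches, at bases 160 and 245 counted from its 5′ end. AP-1 matches occurred in 7.93% of 27025 mouse promoters of this length, and 2 or more occurred in 0.44%. The Cyp3a11 window held a nuclear receptor hexamer at base 89, found in 16.0% of promoters, and a TATA box match at base 17, found in 14.2%. TATA box matches also stood at base 125 for Cyp3a16 and at base 129 for Cyp3a41a. The annotated start follows base 250, so none of these TATA box matches lies close to it. Cyp1b1 held an AhR core at base 175, found in 32.5% of promoters. Aligned end to end, the Cyp3a16 and Cyp3a41a windows were identical over 93.3% of their bases and Cyp3a11 and Cyp3a16 over 78.3%. Cyp3a13 shared 60.0% with Cyp3a16, 58.7% with Cyp3a11, 57.7% with Cyp3a41a and 56.3% with Cyp3a25, against 49.3% to 57.3% with 60 member promoters outside Cyp3a. Of 64 tested members with a promoter entry, 9 held an AP-1 match, 16 an AhR core, 13 a nuclear receptor hexamer and 12 a TATA box match. A match is a description of the letters, not of binding.

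Among the P450s, 32 of 85 members were tested, and 23 were at 0 throughout. Of the 32 tested P450s, 5 were higher and 3 lower, beside 4.85% and 3.94% of all genes. Their log2 fold changes ran between -4.03 and 2.43, and within Cyp4f, 2 members were higher and 1 lower. In Cyp3a, 1 member was higher, and the lower one, Cyp3a41a, passed the filter on low values only through the WT libraries. Of the Cyp1 family only Cyp1b1 could be tested, a P450 of tissues outside the liver that oxidises oestrogens and polycyclic hydrocarbons (chr17:79701537-79715061). Cyp1b1 was at 160, 211 and 257 in labelled KO 1 to 3 and at 40, 32 and 54 in WT 1 to 3. Every labelled KO library lay above every WT library, and the log2 fold change was 2.30 ± 0.27 (SE, limma, adjusted p = 0.0113). Cyp1a1, the classical AhR-induced P450, was at 0, 0 and 0 in labelled KO 1 to 3 and at 0, 1 and 2 in WT 1 to 3, and Cyp1a2 was at 0 in all 6 libraries. The call of Cyp1b1 was lost without labelled KO 3, WT 1 or WT 2, with log2 fold changes of 2.12 to 2.49 over the 6 fits that left out 1 library.

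In the Cyp2 family, 16 of 50 members were tested, 1 was higher and 1 lower, beside 4.85% and 3.94% of all genes. Cyp2j6, which belongs to a family of fatty acid epoxygenases, was at 2707, 2040 and 1882 in labelled KO 1 to 3 and at 1326, 1257 and 958 in WT 1 to 3. All labelled KO values exceeded all WT values, with a log2 fold change of 0.90 ± 0.20 (SE, limma, adjusted p = 0.0419). Cyp2w1, a P450 known from the fetal gut, was at 536, 210 and 155 in labelled KO 1 to 3 and at 809, 1215 and 1561 in WT 1 to 3. It was lower in each labelled KO library than in any WT library, with a log2 fold change of -2.15 ± 0.47 (SE, limma, adjusted p = 0.0409). Per kb of exon, Cyp2w1 stood at rank 26 of the tested members in labelled KO libraries and at rank 6 in WT libraries. Both calls were lost in 5 of the 6 fits that left out 1 library, and kept only without labelled KO 1, with adjusted p values of up to 0.158 for Cyp2j6 and log2 fold changes of -2.67 to -1.78 for Cyp2w1. With Ddx3y above 0 as a covariate, Cyp2w1 had an adjusted p of 0.0795, and with library totals Cyp2j6 had one of 0.0515 (limma).

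Other Cyp2 members did not pass. Cyp2c70, which makes muricholic acids in mouse liver, was at 1, 4 and 4 in labelled KO 1 to 3 and at 30, 13 and 12 in WT 1 to 3 (limma, adjusted p = 0.0514). It passed the filter on low values only through the WT libraries. Cyp2s1, a P450 of epithelia, was at 447, 559 and 694 in labelled KO 1 to 3 and at 398, 257 and 303 in WT 1 to 3 (limma, adjusted p = 0.0673). Cyp2d26, among the most abundant P450s per kb, was at 2275, 5227 and 7174 in labelled KO 1 to 3 and at 6378, 4633 and 1211 in WT 1 to 3. Its lowest value in each genotype was in labelled KO 1 and in WT 3, the libraries with the lowest segment scores, and the genotypes overlapped. Whether position along the intestine had a part in this was not tested. Cyp2e1, the ethanol-oxidising P450, did not exceed 4 in any library. Cyp2d34 was at 8, 7 and 11 in labelled KO 1 to 3, was listed at 0 in WT 1 to 3, and was too low to be tested. All 7 tested Cyp2c members were uncalled, with a median log2 fold change of -0.73. Of them, 1 passed at an unadjusted p under 0.05, beside 30.3% of all genes. That was Cyp2c70, whose direction the filter fixed and which is also in the median.

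Of the tested Cyp3a genes, whose products oxidise many drugs and steroids, Cyp3a13 and Cyp3a41a were called, and the filter fixed the direction of Cyp3a41a. Cyp3a13 (chr5:137892932-137921619) was at 3363, 4350 and 5999 in labelled KO 1 to 3 and at 1800, 1479 and 1697 in WT 1 to 3. The labelled KO values all lay above the WT values, with a log2 fold change of 1.43 ± 0.23 (SE, limma, adjusted p = 0.02). Cyp3a41a (chr5:145694049-145720136), known from female mouse liver, was at 4, 7 and 2 in labelled KO 1 to 3 and at 154, 134 and 24 in WT 1 to 3. All WT libraries exceeded all labelled KO libraries, with a log2 fold change of -4.03 ± 0.75 (SE, limma, adjusted p = 0.0277). Through that filter it had to differ, and 98.6% of its 50-base words occur in other transcripts, mainly those of Cyp3a41b, which was listed at 0 throughout.

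Cyp3a16, a form of fetal and newborn mouse liver, was listed at 0 in all 3 labelled KO libraries and at 59, 106 and 7 in WT 1 to 3, and was not tested. Cyp3a11, the main PXR-induced Cyp3a of mouse liver, was at 25, 82 and 198 in labelled KO 1 to 3 and at 999, 522 and 54 in WT 1 to 3 (log2 fold change -2.02 ± 1.16 SE, limma, adjusted p = 0.281). Cyp3a25 was at 1072, 754 and 661 in labelled KO 1 to 3 and at 2322, 1920 and 795 in WT 1 to 3 (limma, adjusted p = 0.186). For both genes WT 1 and WT 2 were highest, while WT 3 lay within the labelled KO range. WT 3 had a low segment score and the female pattern of Xist, and the part of either in these values was not tested. Without labelled KO 1 and WT 3, the adjusted p values were 0.0118 for Cyp3a11 and 0.00161 for Cyp3a25 (limma), but that fit sets female-pattern labelled KO libraries against male-pattern WT libraries, so sex and labelled genotype cannot be told apart in it. With Ddx3y above 0 as a covariate, Cyp3a41a had an adjusted p of 0.0521, Cyp3a11 of 0.393 and Cyp3a25 of 0.157, and Cyp3a13 of 0.0448 (limma). The summed level of the Cyp3a genes other than Cyp3a13 was 1102, 847 and 865 in labelled KO 1 to 3 and 3545, 2698 and 885 in WT 1 to 3. With each gene per kb of exon, Cyp3a13 made up 68.5%, 79.3% and 85.0% of the Cyp3 sum in labelled KO 1 to 3 and 29.9%, 30.2% and 58.3% in WT 1 to 3. The call of Cyp3a13 was lost without labelled KO 3 or any of the WT libraries, and that of Cyp3a41a without labelled KO 3, WT 1 or WT 2, with log2 fold changes of 1.21 to 1.63 and of -4.87 to -3.56.

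**Figure D2:**
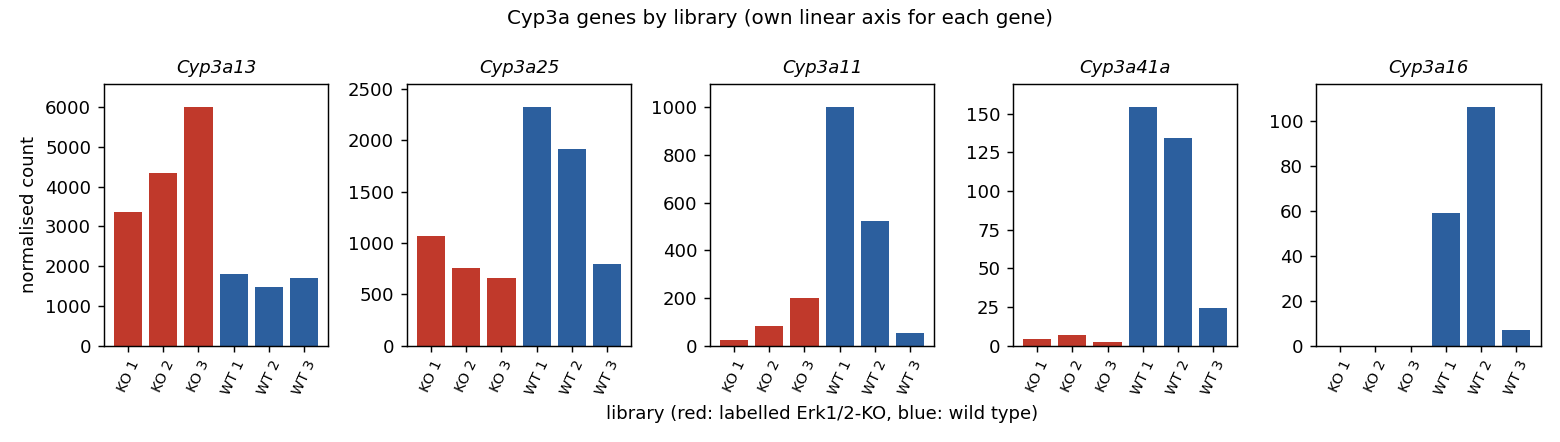
Normalised counts of Cyp3a genes in each library, labelled Erk1/2-KO in red and wild type in blue, on a linear axis for each gene. Cyp3a13 was 3363 to 5999 in labelled KO libraries and 1479 to 1800 in WT libraries, while WT 1 and WT 2 held the highest values of Cyp3a11, Cyp3a16, Cyp3a25 and Cyp3a41a.

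In the Cyp4 family, whose enzymes hydroxylate the tails of fatty acids and eicosanoids, 11 of 23 members were tested. Of these, 2 were higher and 1 lower, beside 4.85% and 3.94% of all genes. Cyp4f14, which acts on leukotriene B4 and vitamin E in mice (chr17:32905070-32917342), was at 2305, 2613 and 2177 in labelled KO 1 to 3 and at 601, 286 and 489 in WT 1 to 3. No labelled KO library came near the WT range, and its log2 fold change of 2.43 ± 0.27 (SE, limma, adjusted p = 0.0108) had the lowest p-value of the members. Per kb, it stood at rank 7 in labelled KO libraries and at rank 24 in WT libraries. Cyp4f40, on the same chromosome, was at 788, 646 and 553 in labelled KO 1 to 3 and at 276, 188 and 230 in WT 1 to 3. It was higher in every labelled KO library than in any WT library, with a log2 fold change of 1.52 ± 0.20 (SE, limma, adjusted p = 0.0141). The call of Cyp4f14 was lost without labelled KO 3 (adjusted p = 0.0549, limma), and that of Cyp4f40 without labelled KO 3, WT 1 or WT 2, with log2 fold changes of 2.12 to 2.65 and of 1.38 to 1.65.

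Cyp4f18, the leukotriene B4 hydroxylase of mouse neutrophils, was at 134, 103 and 72 in labelled KO 1 to 3 and at 242, 242 and 197 in WT 1 to 3. The labelled KO values were all lower, with a log2 fold change of -1.17 ± 0.25 (SE, limma, adjusted p = 0.0384). Of 7 tested haematopoietic markers, 3 were also lower, beside 3.94% of all genes: Ptprc, Cd79a and Adgre1. Ptprc, the pan-leukocyte CD45, was at 176, 257 and 202 in labelled KO 1 to 3 and at 532, 570 and 476 in WT 1 to 3. The summed level of the 8 markers in the list was 1758 to 5421 in labelled KO libraries and 3270 to 5533 in WT libraries. Csf1r made up most of the 5421, which was the sum in labelled KO 1. Csf1r was at 4805, 1557 and 1115 in labelled KO 1 to 3 and at 2024, 2485 and 4436 in WT 1 to 3. The neutrophil marker Ly6g was at 11, 5 and 3 in labelled KO 1 to 3 and at 0, 0 and 1 in WT 1 to 3. The part of these markers in the value of Cyp4f18 was not tested. The call of Cyp4f18 was lost in 5 of the 6 fits that left out 1 library, all except that without labelled KO 1, with log2 fold changes of -1.38 to -0.94. Its adjusted p was 0.057 with Ddx3y above 0 as a covariate (limma).

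Other Cyp4 members were not called. Cyp4a10, a fatty acid hydroxylase under PPARalpha control, was at 8, 299 and 188 in labelled KO 1 to 3 and at 1345, 1184 and 44 in WT 1 to 3 (log2 fold change -2.38 ± 1.71 SE, limma, adjusted p = 0.381). Its lowest value in each genotype was again in labelled KO 1 and WT 3. With the segment score as a covariate the log2 fold change was -3.20 (limma, adjusted p = 0.00251), and with Ddx3y above 0 as a covariate it was -2.36 (limma, adjusted p = 0.449). Cyp4f16, the most abundant Cyp4 member per kb, was at 8440, 4205 and 7875 in labelled KO 1 to 3 and at 4905, 3928 and 2462 in WT 1 to 3 (limma, adjusted p = 0.155). Cyp4f13 was at 1249, 692 and 933 in labelled KO 1 to 3 and at 1191, 1108 and 995 in WT 1 to 3, with the genotypes overlapping.

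**Figure D3:**
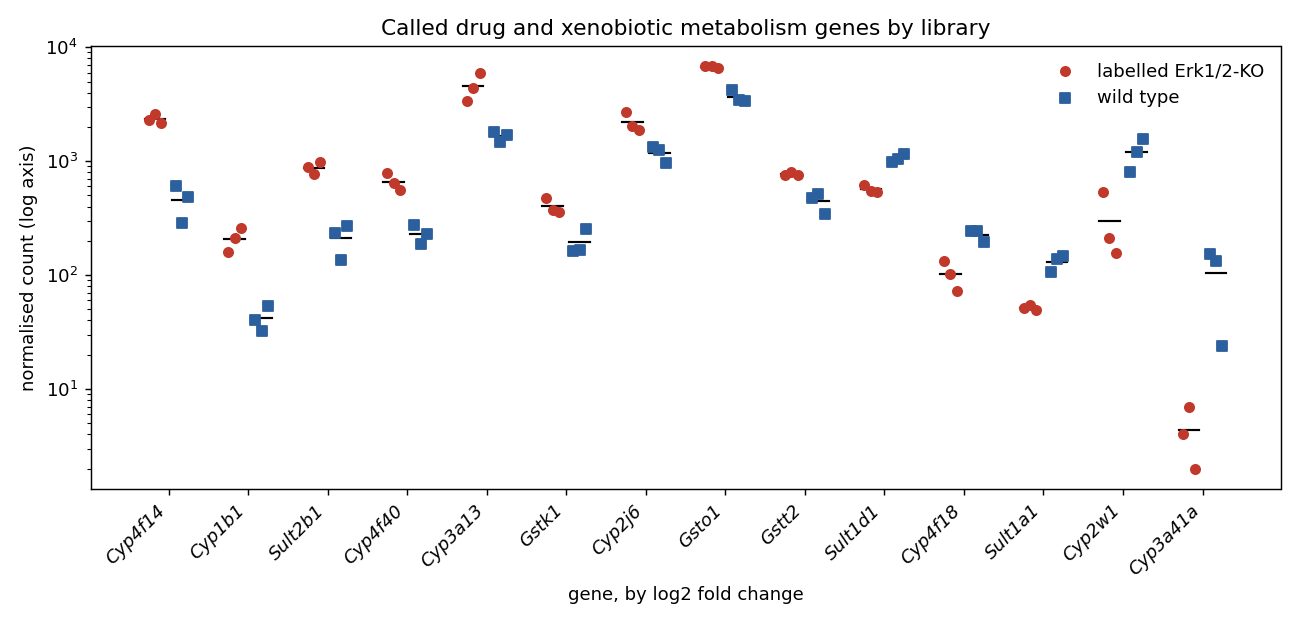
Normalised counts of the 14 called members in each library on a log axis, labelled Erk1/2-KO left of wild type, with lines at the means. Each gene's labelled KO values lie wholly above or wholly below its WT values, as for Cyp4f14 at 2177 to 2613 in labelled KO libraries and 286 to 601 in WT libraries.

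No carboxylesterase was called among 11 tested of 17 members, beside 8.79% of all genes (limma). At an unadjusted p under 0.05, 2 passed, beside 30.3% of all genes. Limma-voom, which also rescales the values by library totals, called 0, beside 9.61% of all genes. Ces2e, an esterase of the intestine, had the highest level per kb of all tested members in both genotypes, at 4154 ± 521 in labelled KO libraries and 2839 ± 235 in WT libraries (SD, n = 3 each, normalised count per kb). Its normalised counts were 12421, 9669 and 11544 in labelled KO 1 to 3 and 8383, 7195 and 7407 in WT 1 to 3. The groups did not overlap, yet the log2 fold change of 0.55 ± 0.16 missed the threshold (SE, limma, adjusted p = 0.0777). Ces2c was at 600, 1563 and 3715 in labelled KO 1 to 3 and at 1018, 505 and 163 in WT 1 to 3 (limma, adjusted p = 0.194), with the genotypes overlapping. Ces1f was at 88, 230 and 245 in labelled KO 1 to 3 and at 221, 140 and 3 in WT 1 to 3. Ces2g was at 45, 444 and 536 in labelled KO 1 to 3 and at 542, 381 and 116 in WT 1 to 3. For Ces1f and Ces2g, labelled KO 1 and WT 3 had the lowest value of their genotype. Ces2a was at 807, 268 and 1005 in labelled KO 1 to 3 and at 775, 601 and 466 in WT 1 to 3, with a log2 fold change of 0.00.

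Glucuronosyltransferases gave no call either, with 9 of 20 members tested (limma), 3 at an unadjusted p under 0.05 and 1 called by limma-voom. The shares of all genes were 8.79%, 30.3% and 9.61%. Ugt1a genes are spliced from their own start exons onto shared 3′ exons, so reads of the shared exons cannot be assigned and each value is uncertain. Ugt1a1, the bilirubin-conjugating form, was at 741, 629 and 751 in labelled KO 1 to 3 and at 989, 905 and 918 in WT 1 to 3 (log2 fold change -0.41 ± 0.13 SE, limma, adjusted p = 0.0972). It was the member that limma-voom called, and limma with library totals called it too. Of its exon bases, 82.7% overlap other genes. Ugt1a7c was at 558, 874 and 679 in labelled KO 1 to 3 and at 480, 349 and 289 in WT 1 to 3 (limma, adjusted p = 0.061). Groups did not overlap for either gene, and the values pointed in opposite directions. Ugt1a6a, which conjugates phenols, was at 14, 41 and 33 in labelled KO 1 to 3 and at 89, 63 and 10 in WT 1 to 3. In the Ugt2 family, Ugt2b34 was at 1540, 1937 and 1753 in labelled KO 1 to 3 and at 1653, 1370 and 1692 in WT 1 to 3, a log2 fold change of 0.15 with a 95% interval of -0.21 to 0.51. Ugt2b35 was at 93, 172 and 144 in labelled KO 1 to 3 and at 293, 269 and 149 in WT 1 to 3 (limma, adjusted p = 0.167). The summed Ugt level was 3398, 3977 and 3553 in labelled KO 1 to 3 and 3884, 3273 and 3432 in WT 1 to 3, so the sums overlapped while single genes went both ways.

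Of the glutathione S-transferases, 18 of 20 members were tested, 3 were higher and 0 lower (limma), with 7 of the 18 at an unadjusted p under 0.05. The shares of all genes were 4.85% higher, 3.94% lower and 30.3% at such an unadjusted p. The summed level was 14656, 14223 and 13274 in labelled KO 1 to 3 and 9818, 8386 and 8837 in WT 1 to 3, without overlap. Gsto1, an omega-class enzyme that reduces dehydroascorbate (chr19:47854970-47864790), was at 6780, 6838 and 6550 in labelled KO 1 to 3 and at 4188, 3468 and 3402 in WT 1 to 3. Its labelled KO values lay close together and above all WT values, with a log2 fold change of 0.87 ± 0.14 (SE, limma, adjusted p = 0.021). Gstk1, the kappa-class enzyme of mitochondria and peroxisomes, was at 473, 372 and 356 in labelled KO 1 to 3 and at 164, 166 and 253 in WT 1 to 3 (1.06 ± 0.22 log2 SE, limma, adjusted p = 0.0369). Gstt2, a theta-class enzyme, was at 762, 797 and 750 in labelled KO 1 to 3 and at 477, 512 and 346 in WT 1 to 3 (0.81 ± 0.18 log2 SE, limma, adjusted p = 0.0406). In both genes all 3 labelled KO libraries exceeded all 3 WT libraries. All 3 calls were lost without labelled KO 2, labelled KO 3, WT 1 or WT 2, and those of Gsto1 and Gstt2 also without WT 3, with log2 fold changes of 0.82 to 0.97 for Gsto1, 0.93 to 1.26 for Gstk1 and 0.64 to 0.92 for Gstt2. With Ddx3y above 0 as a covariate, Gstk1 had an adjusted p of 0.0733 and Gstt2 of 0.0531 (limma), and Gstt2 had one of 0.082 with library totals.

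Alpha, mu and pi members were not called. Gsta1, an alpha-class enzyme under Nrf2 control, was at 156, 499 and 430 in labelled KO 1 to 3 and at 87, 56 and 6 in WT 1 to 3. The groups did not overlap, and the log2 fold change of 3.30 ± 0.95 was the largest positive value of the members but missed the threshold (SE, limma, adjusted p = 0.0729). Of its 50-base words, 90.5% occur in other transcripts, mostly those of Gm3776, so its counts are uncertain. Gstp1, the pi-class enzyme, was at 2867, 1915 and 1984 in labelled KO 1 to 3 and at 1174, 934 and 1497 in WT 1 to 3 (limma, adjusted p = 0.0579). Gsta4, which conjugates 4-hydroxynonenal, was at 84, 365 and 251 in labelled KO 1 to 3 and at 265, 174 and 40 in WT 1 to 3. The value of Gsta3 was 216, 110 and 95 in labelled KO 1 to 3 and 105, 87 and 340 in WT 1 to 3, so these alpha-class genes went in opposite ways in labelled KO 1 and WT 3. Gstm2 was at 332, 384 and 275 in labelled KO 1 to 3 and at 364, 268 and 362 in WT 1 to 3, with a log2 fold change of 0.00 and a 95% interval of -0.46 to 0.46. The 7 mu-class members had a median log2 fold change of -0.10.

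Sulfotransferases had 7 of 18 members tested, 1 higher and 2 lower, beside 4.85% and 3.94% of all genes. Another 11 were at 0 throughout, including all 8 Sult2a genes and Sult1e1, the oestrogen sulfotransferase. Sult2b1, which sulfates cholesterol and pregnenolone (chr7:45729983-45784669), was at 894, 770 and 974 in labelled KO 1 to 3 and at 235, 136 and 268 in WT 1 to 3. The lowest labelled KO value was far above the highest WT value, and the log2 fold change was 2.09 ± 0.27 (SE, limma, adjusted p = 0.0128). Sult1d1, which acts on catecholamines in mice, was at 621, 546 and 540 in labelled KO 1 to 3 and at 978, 1055 and 1160 in WT 1 to 3 (-0.90 ± 0.14 log2 SE, limma, adjusted p = 0.0193). Sult1a1, a phenol sulfotransferase, was at 51, 55 and 49 in labelled KO 1 to 3 and at 106, 139 and 148 in WT 1 to 3 (-1.31 ± 0.19 log2 SE, limma, adjusted p = 0.0182). Both Sult1 genes were lower in every labelled KO library. Sult1b1, the sulfotransferase with the highest level per kb, was at 2376, 1856 and 1650 in labelled KO 1 to 3 and at 1679, 1552 and 1628 in WT 1 to 3 (limma, adjusted p = 0.329), with the genotypes overlapping. The call of Sult2b1 was lost without labelled KO 3 or WT 1, and those of Sult1d1 and Sult1a1 without labelled KO 3 or any of the WT libraries, with log2 fold changes of 1.80 to 2.28, -0.97 to -0.84 and -1.46 to -1.22.

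Several members varied more within a genotype than genes in general. WT 3 was more than 2-fold below both WT 1 and WT 2 for 24 of 77 members, or 31.2%, beside 2.53% of all genes, including Ces1f, Ces2c, Cyp3a11, Cyp4a10 and Gsta1. Labelled KO 1 was more than 2-fold below labelled KO 2 and labelled KO 3 for 14 members, or 18.2%, beside 6.84% of all genes. Labelled KO 1 and WT 3 were both below all 4 other libraries for 19 members, or 24.7%, beside 10.4% of all genes, and both above them for 7 members, or 9.09%, beside 10.8%. The median range within a genotype on the log2 scale was 0.88 for members and 0.60 for all genes in labelled KO libraries, and 0.85 for members and 0.32 for all genes in WT libraries. With the segment score as a covariate, 19 members were higher and 12 lower, beside 31.4% of all genes called, and all 14 calls were among them.

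**Figure D4:**
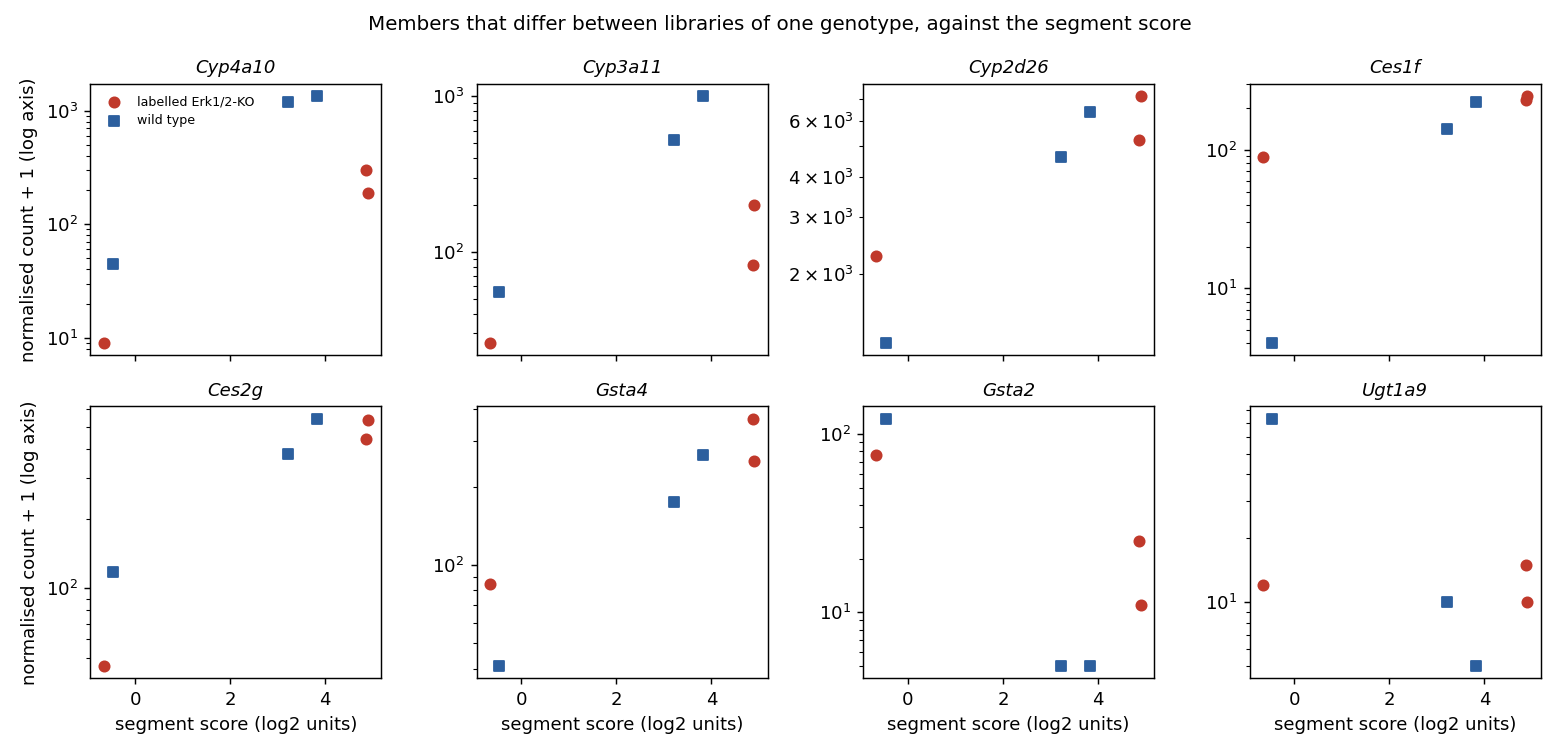
Normalised count + 1 (log axis) of 8 members that differ within a genotype, against the segment score of each library in log2 units, with labelled Erk1/2-KO libraries as red circles and WT libraries as blue squares. Labelled KO 1 at -0.66 and WT 3 at -0.47 stand to the left of the other 4 libraries, whose scores are 3.21 to 4.90.

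The partners of the P450s were tested beside them, from lists chosen with earlier results of these data known. Of 4 partners 2 were higher, beside 4.85% of all genes, and the other 2 were not called. Por, the reductase that passes electrons to the P450s, was at 8532, 7300 and 12436 in labelled KO 1 to 3 and at 4323, 3493 and 3209 in WT 1 to 3. Its values did not overlap, with a log2 fold change of 1.33 ± 0.23 (SE, limma, adjusted p = 0.0245), and Cyb5b, a cytochrome b5 of the outer mitochondrial membrane, was higher as well, at 1.06 ± 0.24 (log2, SE, limma, adjusted p = 0.0434). Of 11 tested sensors, 0 were called by limma and 0 by limma-voom, and 1 passed at an unadjusted p under 0.05. The shares of all genes were 8.79%, 9.61% and 30.3%. Nr1i2, which encodes PXR, was at 3475, 3105 and 2831 in labelled KO 1 to 3 and at 3584, 3495 and 2476 in WT 1 to 3, and Nfe2l2, which encodes Nrf2, had a log2 fold change of 0.01. The calls of Por and Cyb5b were lost without labelled KO 3 or any of the WT libraries, that of Cyb5b also without labelled KO 2, with adjusted p values of up to 0.134 and 0.163 (limma). The adjusted p was 0.0546 for Por and 0.0799 for Cyb5b with Ddx3y above 0 as a covariate, with library totals it was 0.0873 for Cyb5b, and limma-voom called 1 of the 4 partners.

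Other enzymes of the same steps were called in part. Over all genes, 4.85% were called higher and 3.94% lower. Of 32 other oxidising, reducing or hydrolysing enzymes tested, 3 were higher and 0 lower: the aldo-keto reductase Akr1b8 at 2.20 ± 0.29, the monoamine oxidase Maoa at 1.81 ± 0.26 and the aldehyde dehydrogenase Aldh3b1 at 0.76 ± 0.13 (log2, SE). Of 21 other conjugation and glutathione genes, 2 were higher and 0 lower: Gsr, which regenerates glutathione, at 1.41 ± 0.18, and the microsomal transferase Mgst3 at 1.27 ± 0.20. Among 16 transporters 2 were higher and 2 lower. The ergothioneine carrier Slc22a4 was higher at 1.69 ± 0.37, and so was Slc22a18 at 0.82 ± 0.15. Abcc2, the apical pump for conjugates, was at 2235, 2696 and 1370 in labelled KO 1 to 3 and at 3824, 4664 and 6389 in WT 1 to 3. Its labelled KO values were all lower, with a log2 fold change of -1.26 ± 0.30 (SE, limma, adjusted p = 0.0476), and Abcc5 was lower at -0.95 ± 0.17. The call of Akr1b8 was lost without labelled KO 3 or WT 2 and that of Gsr without WT 1 or WT 2, and the other 7 were lost without labelled KO 3, WT 1 or WT 2. Of those 7, the calls of Slc22a4, Slc22a18 and Abcc2 were also lost without labelled KO 2, and those of Aldh3b1, Abcc5, Slc22a18 and Abcc2 without WT 3. The highest adjusted p in these fits was 0.177, for Abcc2 (limma). With Ddx3y above 0 as a covariate, adjusted p was 0.0515 for Aldh3b1, 0.0508 for Slc22a18, 0.0777 for Slc22a4 and 0.0774 for Abcc2, and with library totals it was 0.0517 for Slc22a18 (limma).

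Targets of the sensors outside the 5 superfamilies were tested in 3 lists. Over all genes, 8.79% were called by limma and 9.61% by limma-voom, and 30.3% passed at an unadjusted p under 0.05. Of 13 Nrf2 targets, 2 were higher and 0 lower, Pgd at 1.33 ± 0.15 and Tkt at 1.37 ± 0.17 (log2, SE), both enzymes of the pentose phosphate pathway, and the list's median log2 fold change was 0.41. Of these 13, 7 passed at an unadjusted p under 0.05 and limma-voom called 3. Among the 7, only Gclm had a log2 fold change below 0, of -0.65. Gclm was at 1511, 1164 and 881 in labelled KO 1 to 3 and at 1539, 1871 and 2066 in WT 1 to 3. Nqo1, a classical Nrf2 target, was at 226, 418 and 286 in labelled KO 1 to 3 and at 302, 231 and 165 in WT 1 to 3, with overlap. No call was made by limma among 3 AhR targets, with 0 at an unadjusted p under 0.05 and 0 by limma-voom. None was made among 15 PPARalpha targets, with 3 at an unadjusted p under 0.05 and 1 by limma-voom. The call of Pgd was lost without WT 2 and that of Tkt without labelled KO 3, WT 1 or WT 2, with adjusted p values of up to 0.0817 (limma). Of the liver markers, Alb was at 1, 0 and 2 in labelled KO 1 to 3 and at 6, 2 and 3 in WT 1 to 3. Ttr was at 2523, 149 and 121 in labelled KO 1 to 3 and at 443, 712 and 1000 in WT 1 to 3. Ambp was at 39, 77 and 57 in labelled KO 1 to 3 and at 190, 201 and 57 in WT 1 to 3. Of 5 tested liver markers 1, the tyrosine aminotransferase Tat, was higher. Tat was at 68, 59 and 36 in labelled KO 1 to 3 and at 2, 1 and 3 in WT 1 to 3. It passed the filter on low values only through the labelled KO libraries, which fixed its direction. The 12 liver markers summed to 239 to 2670 in labelled KO libraries and to 672 to 1101 in WT libraries, and their part in the members' values was not tested.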

How the data were processed

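RNA was extracted with Trizol and TruSeq libraries were made, per the labels' protocols. Tools named in the submitters' processing notes are DESeq2, HTSeq 0.6.0 and TopHat2 2.1.0, with mm10 as the build. Not given in the sources used here are the gene annotation, how strand was handled and what was done with multiply mapped reads. What the authors deposited is a score for each symbol, their whole-number normalised counts, not raw counts, so read depth is unknown and no counting interval is given. Some genes are not reported here.

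In all, 14686 of 24452 genes reached 10 in 3 or more libraries. They were tested with limma 3.58.1 in R 4.3.3 after a log2 transform with a pseudocount of 1, using a trended prior variance, genotype as the only term, two-sided tests, Benjamini-Hochberg adjustment over all tested genes and a threshold of 0.05. Residual degrees of freedom were 4 and the median prior degrees of freedom 2.99. The script was tested on simulated data. Fold changes on this scale understate the change of low genes. Fits that left out libraries kept the same genes.

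The members, the lists and the tests were chosen with earlier results of these data known. Named genes were all called members, up to 3 abundant members per family, the 5 largest uncalled changes, members at 0 in 1 genotype and at 10 or more in at least 2 libraries of the other, and, from the lists, called genes, some of them named only as counts. Other genes named for their values (Cyp1a1, Cyp1a2, Cyp2d34, Cyp2e1, Cyp2s1, Ces2g, Nr1i2, Nfe2l2, Nqo1, Gclm, Cyb5a, Cyb5r3, Xist, Ddx3y, markers) fall outside that rule and were chosen after these were seen. Coordinates and exon lengths come from GENCODE M21 (GRCm38, the assembly mm10 names), where 158 of 160 members matched, and promoters from RefSeq, with 128 entries among members. Alternatives changed scaling, pseudocount, filter, test, block, covariate and libraries. The covariate Ddx3y above 0 was added after seeing the data.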

Additional observations from a re-analysis of the deposited data

How the results depend on the processing

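Direction held for all 14 called members under all 20 alternatives. Labelled KO and WT values did not overlap for any of the 14. Leaving out libraries or changing the pseudocount therefore could not reverse a direction, and those fits are no test of it. The counts of calls depended on the libraries. Leaving out 1 library gave 0 to 13 members higher, 0 to 9 lower and 48 to 3015 genes called, against 9, 5 and 1291 with all libraries. The segment score as a covariate gave 19 members higher, 12 lower and 4608 genes. Leaving out both labelled KO 1 and WT 3 gave 14 higher, 17 lower and 3888 genes, and there sex and labelled genotype cannot be told apart. Ddx3y above 0 as a covariate gave 2 members lower and 459 genes. The cause of these shifts was not tested. Deviations from the group means correlated across genes at -0.37, 0.30 and -0.16 for libraries of the same replicate number, 1 to 3. Labelled KO 1 and WT 3, of unlike numbers, correlated at 0.41. With 3 libraries a group, these values cannot decide whether the numbers pair the libraries, and no library can be matched by animal. With the replicate block, 2 members were higher (Cyp1b1 and Sult2b1), 0 lower and 64 genes were called, with 29 members at an unadjusted p under 0.05. With library totals, 7 of 14 member calls and 29.7% of all calls were higher, against 9 of 14 and 55.2% with the authors' scaling, and upper-quartile scaling gave 44.5% of all calls higher. Limma-voom called 12 members, without Cyp3a41a, Gstt2 and Cyp2j6. Without a filter 11 members were called. With 3 libraries a group and no read depth, uncalled members cannot be read as unchanged.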
